A study of Chromochloris zofingiensis with 38 samples.

Results

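GA is an addition to cultures of the unicellular green alga Chromochloris zofingiensis, and the question here was whether its effect on gene expression at 24 h differed from its effect at 1 h. The members are the libraries labelled GA or None at either time, 15 of the 38 libraries of the series: 4 of GA and 4 of None (no addition) at 1 h, and 3 of GA and 4 of None at 24 h. All were poly(A) RNA libraries from pelleted wild-type cells, and the series was made to follow inhibition of TOR by AZD and addition of glucose (Glu). GA has the initials of both treatments, but no label spells it out, so it is called GA throughout, and whether it is the combined treatment was not tested. AZD (3 libraries at 1 h, 4 at 24 h) and Glu (4 at each time) serve as points of comparison. S (4 at each time) is a further group of the series, which no label spells out. Its libraries enter the shared fit, and no contrast with S was tested. The replicate numbers present for GA at 24 h are 1, 3 and 4. No label says whether replicates came from separate cultures. The p-values therefore speak only of the spread among these libraries, some or all of which may be technical. The titles of the samples carry one prefix at 1 h and another at 24 h, and the design confounds the 2: the effects of time and of whatever the prefix stands for cannot be told apart. For this reason no level at 24 h was set against a level at 1 h: the tested quantity was always the difference between GA and None within a time, and then the difference of these differences.

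TOR is a protein kinase conserved from yeast to animals and plants that promotes protein synthesis and growth when nutrients are plentiful and restrains autophagy. AZD is the name given to its inhibitor in the series. C. zofingiensis can grow on light or on glucose, and when glucose is supplied it is known to shut down photosynthesis and to store lipids and the carotenoid astaxanthin. The gene IDs of the count table come with no names or products, and 0 of them could be matched to a name, so genes are given by ID and no role or pathway is assigned to any of them.

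The 15 libraries held 12414643 to 55464393 counts, a 4.47-fold range. The distance of each library to the rest of its group, taken as the root mean square over 12142 genes of log2 differences, was 0.30 to 0.54. The 100 most abundant genes of each library held 31.6% ± 0.870 of the counts in GA at 1 h and 21.9% ± 0.969 in None at 1 h (SD, n = 4 each). At 24 h the same share was 27.4% ± 1.56 in GA (n = 3) and 26.7% ± 1.74 in None (n = 4). Among the other libraries of the series, S replicate 1 and Glu replicate 4 at 1 h stood farthest from their groups, at 0.75 and 0.70. They enter the fit through the shared estimate of the spread, and Glu replicate 4 also enters the comparison with Glu.

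For most genes the GA response was not the same at the 2 times. Of 12142 genes tested, 8353 (68.8%) passed the test of the difference between the times (edgeR quasi-likelihood, adjusted p under 0.05). In 4099 of them (33.8% of those tested) the difference was more positive at 24 h, and in 4254 (35%) more negative. A difference of at least 2-fold accompanied the call in 6035 genes (49.7%), 2803 of them positive and 3232 negative. Among the strongest differences the negative ones were in the majority: of genes past 16-fold, 178 were more positive and 667 more negative at 24 h, and past 32-fold 81 and 447. These are counts of fitted values, and of the genes past 16-fold 16 of the positive and 23 of the negative ones had a group with no count. With library totals 316 were more positive and 513 more negative past 16-fold. The median absolute log2 difference of the genes that passed was 1.54. A stricter test, which asks whether the difference exceeds 2-fold rather than 0, called 4446 genes.

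Taken within each time, the distance between GA and None was larger at 24 h. The mean profiles of GA and None lay 1.25 apart at 1 h and 2.12 apart at 24 h, in the same root mean square units. At 1 h, 8101 genes (66.7%) were called between GA and None, of which 4495 rose (37% of those tested) and 3606 fell (29.7%), and 4160 (34.3%) changed at least 2-fold. At 24 h, 9189 (75.7%) were called, of which 4430 rose (36.5%) and 4759 fell (39.2%), and 6008 (49.5%) changed at least 2-fold. Changes of at least 16-fold numbered 22 rises and 100 falls at 1 h, and 232 rises and 633 falls at 24 h. With library totals these were 7 rises and 268 falls at 1 h and 167 rises and 741 falls at 24 h. Across the 12142 genes, which are not independent replicates, the log2 fold changes at the 2 times were related with Pearson's r = 0.24 and Spearman's rho = 0.31. No library is shared between the 2 times.

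**Figure D1:**
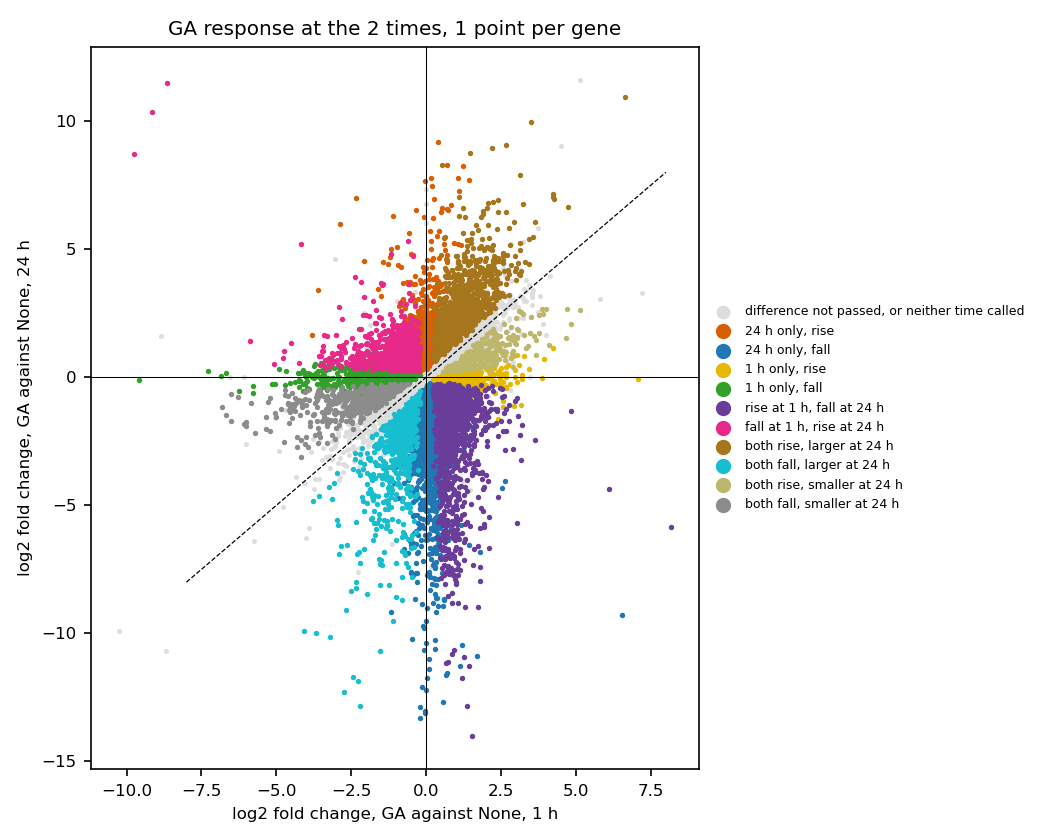
Each point is a gene, placed by its log2 fold change of GA against None at 1 h (horizontal axis) and at 24 h (vertical axis), and coloured by its response pattern where it passed the test of the difference. The dashed line marks equal change at both times. The spread along the vertical axis is the wider one, with 633 falls of at least 16-fold at 24 h against 100 at 1 h.

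The balance of rises and falls depends on how the libraries are scaled. TMM scaling, used for all values here unless stated, sets the middle of the expressed genes near no change, and its factors were 0.570 to 0.664 for GA at 1 h, against 1.17 to 1.20 for None at 1 h. At 24 h they were 0.899 to 1.04 for GA and 1.16 to 1.28 for None. With library totals alone the median log2 fold change of all genes moved to -0.84 at 1 h and -0.40 at 24 h, and the median difference between the times to 0.63. The rising share of the calls then went to 14.2% at 1 h, against 55.5% with TMM, and to 35.9% at 24 h, against 48.2%. The 55.5% did not hold within TMM either. With each of the 8 GA and None libraries of 1 h left out in turn, the rising share at 1 h was 46.3% to 48.1%. The more positive share of the difference was 67.8% with totals and 49.1% with TMM. It was 56.6% with another library as the TMM reference. Rises and falls below are therefore relative to the middle of the expressed genes, and no majority of one direction is drawn from the whole. The test of the difference itself moved less: 6933 of the 8353 genes (83.0%) kept call and sign under all 4 scalings tried (TMM, TMM with the other reference, median-ratio factors and totals), and 2 were called with the opposite sign under any.

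Genes that passed the difference were divided by their calls at the 2 times, with the medians of log2 fold changes given on the TMM scale. With TMM the largest pattern was a fall at 24 h without a call at 1 h, with 1417 genes (1039 with library totals, where 4 other patterns held more), whose median log2 fold change was 0.09 at 1 h and -1.98 at 24 h. A rise at 24 h without a call at 1 h was found in 959 genes, with medians of -0.03 and 1.31. The early-only patterns held 575 rises, with medians of 1.06 at 1 h and -0.05 at 24 h, and 770 falls, with medians of -1.31 and 0.03. Over all genes tested, 37% rose and 29.7% fell at 1 h, and 36.5% rose and 39.2% fell at 24 h. Reversals are to be read against these shares. Of the 12142 genes tested, 1266 rose at 1 h and fell at 24 h, with medians of 0.81 and -1.71. A further 766 fell at 1 h and rose at 24 h, with medians of -0.89 and 0.82. All genes of both sets passed the difference. Their shares of the genes that passed, 15.2% and 9.17%, therefore exceed their shares of those tested. Only the latter can be set against the shares of all genes above. In 308 of the first set and 130 of the second the change was at least 2-fold at both times. Whether or not they passed the difference, 2427 of the genes tested rose at both times and 1887 fell at both times. Among those of them that passed, 1080 rises and 641 falls were larger at 24 h, and 311 rises and 491 falls were smaller. The remaining 77 genes that passed were called at neither time.

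Which pattern a gene falls into was less stable than the difference, because it needs a call or its absence at each time. Under all 4 scalings, 388 of the 766 genes that fell and then rose stayed in that pattern, as did 160 of the 1266 that rose and then fell. The larger losses came from library totals, where 224 genes rose and then fell and 1313 fell and then rose. With totals 168 of the 1266 genes were still called up at 1 h, 322 were called down and 776 were not called. Their median at 1 h was then -0.16, which is below 0 but above the -0.84 of all genes, and at 24 h it was -2.07. For the 766 genes the medians with totals were -1.86 at 1 h and 0.47 at 24 h. For the 1417 genes that fell only at 24 h they were -0.88 and -2.34, with 1172 called down at 1 h, and for the 959 that rose only at 24 h they were -0.9986 and 0.95, with 820 called down at 1 h. The 575 early rises had a median at 1 h of 0.09 with totals, and the 770 early falls -2.27. The pattern that stayed best was the fall smaller at 24 h, with 438 of 491. Library totals lowered the fold changes at both times, and more so at 1 h, which favours this pattern. Its medians went from -2.13 to -3.09 at 1 h and from -0.85 to -1.20 at 24 h. Its stability under totals is therefore no result of its own.

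**Figure D2:**
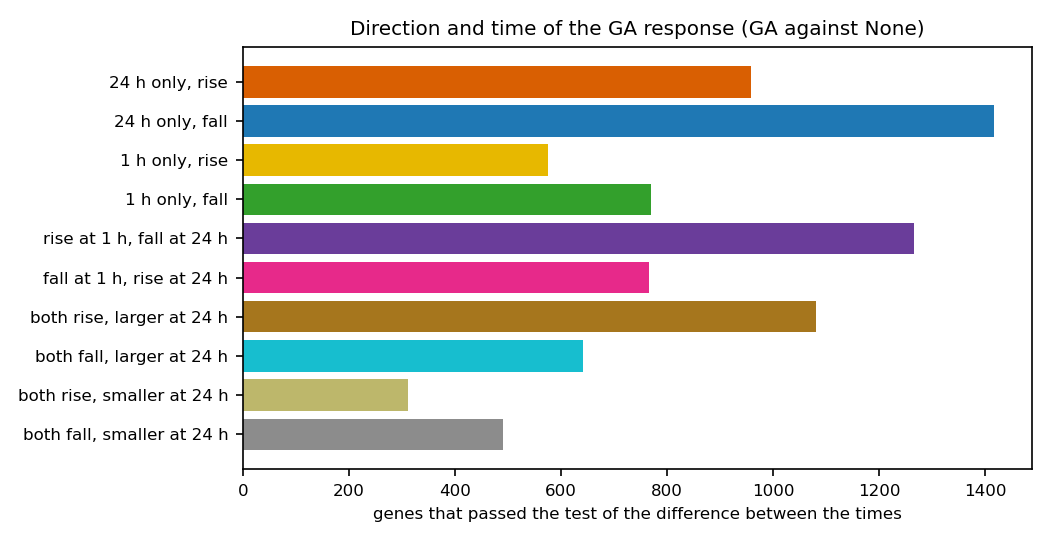
Bars give the number of genes (horizontal axis) in each response pattern among those that passed the test of the difference between the times, with TMM scaling. The fall at 24 h without a call at 1 h is the longest bar (1417 genes) and the rise that was smaller at 24 h the shortest (311).

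Genes were named by a rule that took at most 2 IDs per direction and pattern, among 7292 candidates in which every GA library lay on 1 side of every None library at each time with a call. The choice by pattern took no account of AZD or Glu, so the genes it named need not be particular to GA. Levels are CPM, a count unit scaled for depth and TMM factor, listed in the order of the replicate numbers, and SE is approximated from the fold change and its F statistic.

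Cz06g31280 and Cz01g23030 were nearly lost from GA cultures at 24 h. At 1 h, Cz06g31280 had 137, 161, 89.5 and 79.8 CPM in GA, against 79.4, 95.1, 59.8 and 82.1 CPM in None. At 24 h it had 0.166, 0 and 0.0393 CPM in GA, against 466, 416, 486 and 544 CPM in None. The groups overlap at 1 h and lie far apart at 24 h. Its log2 fold change was 0.56 (SE 0.31) at 1 h and -12.69 (SE 0.65) at 24 h, a difference of -13.25 (SE 0.71, edgeR adjusted p = 1.71e-17), which was -14.73 without GA replicate 1 at 24 h. Cz01g23030 had 287, 282, 221 and 233 CPM in GA at 1 h, against 289.9, 319, 290.4 and 276 CPM in None, with overlap. At 24 h its levels were 0.0711, 0.0794 and 0.275 CPM in GA and 1345, 1544, 1662 and 1669.9 CPM in None. The difference between the times was -13.10 (SE 0.68, edgeR adjusted p = 9.52e-18), and -14.07 without GA replicate 4 at 24 h. With library totals this gene was called down at 1 h as well, at -1.18.

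Among rises at 24 h without a call at 1 h, Cz02g05040 and Cz01g44090 had the largest differences between the times of the candidates for naming. For Cz02g05040 the 24 h levels were 5.97, 5.32 and 4.91 CPM in GA, against 0, 0.126, 0.0715 and 0 CPM in None. At 1 h it was at the limit of counting, with 0.0814, 0, 0 and 0 CPM in GA (2 counts in all) and 0.145, 0.179, 0.0812 and 0.106 CPM in None (21 counts). The count ratio at 1 h was 5.59-fold lower in GA, with a 95% counting interval of 1.37 to 49.2. Its log2 fold change was -2.34 at 1 h (edgeR adjusted p = 0.210) and 6.996 at 24 h, which is less than the 9.18 of Cz01g44090. The difference between the times, 9.34 (SE 1.95, edgeR adjusted p = 8.29e-05), therefore includes a 1 h value that rests on 2 GA counts and was not called. The difference was 12.27 without GA replicate 1 at 1 h and 10.25 without None replicate 2 at 24 h, so its size moves with single counts. Cz01g44090 had 6.79, 4.34, 6.78 and 13.2 CPM in GA at 1 h and 6.17, 6.29, 5.06 and 6.33 CPM in None, with overlap. After 24 h it had 80.2, 95.02 and 90.6 CPM in GA, against 0.220, 0.189, 0.107 and 0.0748 CPM in None. Its log2 fold change at 24 h was 9.94 in AZD and 5.50 in Glu, against 9.18 in GA. The mean level at 24 h was 599.8-fold higher in GA, and the difference between the times was 8.78 (SE 1.68, edgeR adjusted p = 2.58e-05). It was 9.41 without GA replicate 4 at 1 h and 9.37 without None replicate 1 at 24 h.

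Early rises that were gone from the calls at 24 h were led, among the candidates for naming, by Cz13g05050 and UNPLg00053. Cz13g05050 had 32.1, 26.7, 25.8 and 25.9 CPM in GA at 1 h, against 0.435, 0.119, 0.203 and 0.0882 CPM in None, a log2 fold change of 7.07 (SE 0.70, edgeR adjusted p = 9.45e-11). At 24 h nearly no counts remained in either group, with 0.119, 0 and 0.0393 CPM in GA (7 counts) and 0.0550, 0, 0 and 0.150 CPM in None (6 counts). The count ratio at 24 h was 0.954, with a 95% counting interval of 0.274 to 3.43, so a change within a few fold was not detectable at this depth, while the 131-fold ratio of the means at 1 h lies far outside the interval. The difference between the times of -7.13 (SE 1.85, edgeR adjusted p = 0.00102) lost its call without None replicate 4 at 24 h (-5.83, adjusted p = 0.0655) and was -8.26 without GA replicate 1 at 24 h. UNPLg00053 had 10.1, 12.0, 7.90 and 11.6 CPM in GA at 1 h and 0.783, 0.596, 0.467 and 0.370 CPM in None. Its 24 h levels were 0.0948, 0.423 and 0.511 CPM in GA and 0.303, 0.126, 0 and 0.150 CPM in None, which overlap. The log2 fold change was 4.24 (SE 0.47) at 1 h and 1.16 (SE 0.60) at 24 h. The difference of -3.08 (SE 0.78, edgeR adjusted p = 0.00075) lost its call without None replicate 1 at 24 h (-2.07, adjusted p = 0.0544).

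Early falls had better depth at 24 h. Cz05g16120 was at 0, 0, 0 and 0.266 CPM in GA at 1 h, against 11.8, 15.1, 13.6 and 14.1 CPM in None. In the 24 h libraries it had 11.5, 13.5 and 11.2 CPM in GA and 12.5, 6.66, 9.87 and 11.0 CPM in None, with overlap. So 3 of the 4 GA libraries held no count of the gene at 1 h, while at 24 h every GA library held it within the range of None or slightly above. The difference was 7.54 (SE 0.70, edgeR adjusted p = 2.09e-11), and 12.27 without GA replicate 4 at 1 h, which held all 8 counts of that group. Cz07g04070 had 0.570, 0.319, 0.0897 and 0.399 CPM in GA at 1 h and 33.9, 36.1, 38.4 and 38.6 CPM in None, 107-fold lower in GA by the means. At 1 h its log2 fold change was -6.68 in GA, -6.88 in AZD and -0.0007 in Glu. Its 24 h levels were 18.3, 22.0 and 20.3 CPM in GA and 20.8, 19.0, 15.6 and 16.97 CPM in None. The fold change at 24 h was 0.16 (SE 0.19) on the log2 scale, and the difference 6.84 (SE 0.33, edgeR adjusted p = 1.03e-18). It was 7.43 without GA replicate 1 at 1 h.

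Cz06g05180 and Cz18g04140 rose in GA at 1 h and fell in GA at 24 h. At 1 h, Cz06g05180 had 4283, 3977, 5259 and 4223 CPM in GA, against 537, 498, 484 and 439 CPM in None. At 24 h it had 1.04, 1.32 and 0.865 CPM in GA, against 11.5, 11.2, 7.33 and 10.6 CPM in None. The mean in GA was thus 9.06-fold higher at 1 h and 9.44-fold lower at 24 h than that of None. The naming rule required groups without overlap at both times. The difference was -6.42 (SE 0.87, edgeR adjusted p = 6.88e-08). Cz18g04140 had 4341, 3541, 4799 and 3935 CPM in GA at 1 h and 571, 553, 436 and 481 CPM in None. At 24 h its levels were 1.61, 1.64 and 1.38 CPM in GA and 75.2, 80.9, 68.4 and 94.0 CPM in None. The mean was 8.14-fold higher in GA at 1 h and 51.6-fold lower at 24 h, and the difference was -8.72 (SE 0.45, edgeR adjusted p = 6.63e-18). Both genes kept this pattern under each of the 4 scalings.

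In the opposite order, Cz06g08010 and Cz15g02150 fell first. Cz06g08010 had 1.18, 1.72, 1.79 and 2.33 CPM in GA at 1 h, against 10.2, 15.0, 14.8 and 13.0 CPM in None. At 24 h the levels were 51.8, 49.0 and 50.3 CPM in GA and 8.61, 6.10, 8.33 and 6.54 CPM in None. This is 7.55-fold lower at 1 h and 6.81-fold higher at 24 h in GA by the means, and the difference was 5.67 (SE 0.29, edgeR adjusted p = 5.34e-18). For Cz15g02150 the 1 h levels were 2.60, 1.91, 2.06 and 0.798 CPM in GA and 8.70, 9.06, 9.69 and 10.2 CPM in None. Its 24 h levels were 249, 313 and 238 CPM in GA and 16.2, 17.8, 17.03 and 20.5 CPM in None. The mean was 5.11-fold lower in GA at 1 h and 14.9-fold higher at 24 h, a difference of 6.27 (SE 0.35, edgeR adjusted p = 6.57e-17). These genes too kept their pattern under the 4 scalings.

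Cz03g33220 and Cz07g06030 rose at both times, and far more at 24 h. Cz03g33220 had 984, 954, 1306 and 1184 CPM in GA at 1 h, against 248, 243, 229 and 252 CPM in None. After 24 h it had 3574, 3033 and 3558 CPM in GA, against 6.77, 8.92, 5.22 and 6.84 CPM in None. The mean was 4.56-fold higher in GA at 1 h and 488-fold higher at 24 h, and the difference was 6.75 (SE 0.36, edgeR adjusted p = 1.38e-17). Cz07g06030 had 8.71, 8.68, 4.85 and 13.6 CPM in GA at 1 h and 0.725, 1.88, 1.14 and 1.87 CPM in None. Its 24 h levels were 231, 279 and 209.8 CPM in GA and 0.578, 0.628, 0 and 0.598 CPM in None. The mean was 6.39-fold higher in GA at 1 h and 531-fold higher at 24 h, with a difference of 6.41 (SE 0.54, edgeR adjusted p = 1.78e-12).

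Cz02g09070 and Cz02g20090 fell at both times and were at or near 0 in GA at 24 h. Cz02g09070 had 0.570, 0.830, 0.449 and 0.399 CPM in GA at 1 h, against 1.97, 2.59, 3.25 and 2.17 CPM in None. At 24 h it had no count in the 3 GA libraries, against 25.9, 26.9, 26.8 and 24.1 CPM in None. With 3 counts over the group as the floor, it was at least 1127-fold lower in GA. By the 95% counting interval it was at least 916-fold lower. Its fitted difference was -10.65 (SE 1.30, edgeR adjusted p = 1.29e-08). This size depends on the prior count of the edgeR fit, a setting apart from the 2 used for distances. Cz02g20090 had 2.07, 2.04, 2.33 and 2.30 CPM in GA at 1 h and 10.6, 12.3, 8.06 and 11.5 CPM in None. At 24 h it had 0.0474, 0 and 0 CPM in GA (2 counts) and 60.3, 76.7, 69.9 and 73.6 CPM in None (7335 counts). The count ratio was 4487-fold lower in GA, with a 95% counting interval of 1242 to 37057. The 4 AZD libraries at 24 h held no count of it, and its log2 fold change in Glu at 24 h was -2.96. The difference of -9.59 (SE 0.49, edgeR adjusted p = 4.24e-17) was -12.00 without GA replicate 1 and -8.99 without GA replicate 4 at 24 h.

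**Figure D3:**
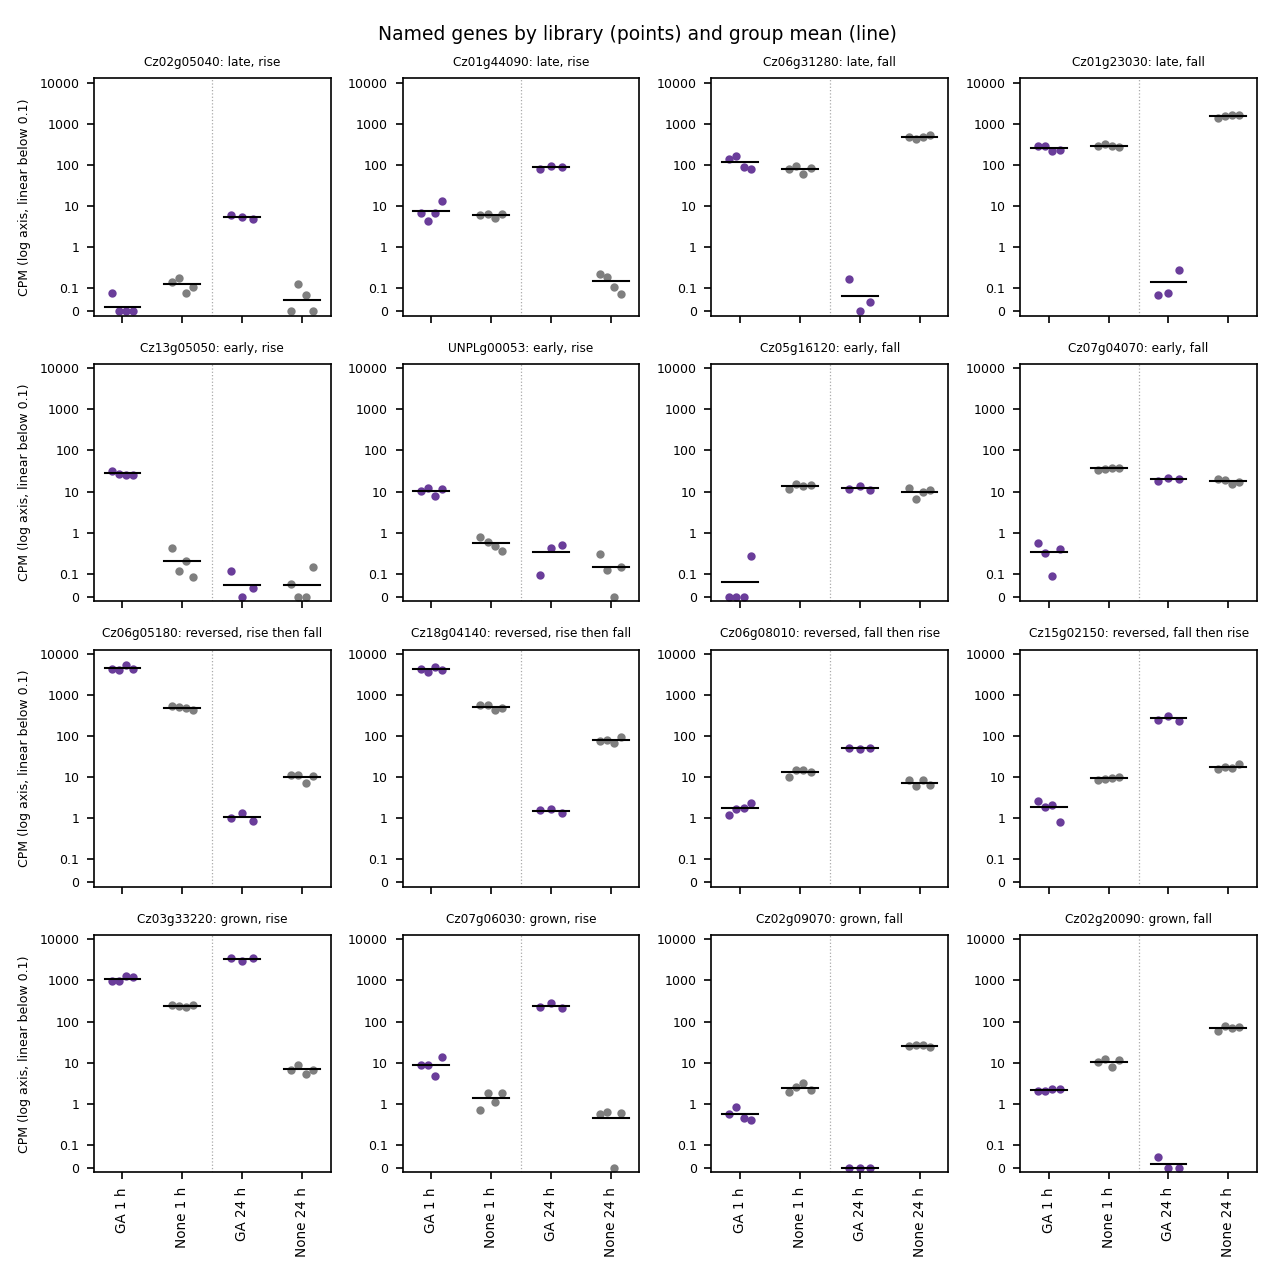
CPM of the 16 genes named by pattern, on a log axis that is linear below 0.1, with a point for each library and a line at each group mean, for GA and None at 1 h and then at 24 h. In the late falls the 1 h groups overlap while GA at 24 h lies at or below 0.275 CPM, and in the reversed genes GA lies above None at one time and below it at the other, without overlap, as the naming rule required.

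Some genes were off or on in GA, in the sense that every library of 1 group was below 1 CPM and every library of the other at or above 10 CPM. At 1 h, 13 genes were off in GA and 1 was on. At 24 h, 212 were off in GA and 27 were on. Of the 212 genes off at 24 h, 100 rose in GA at 1 h, 40 fell and 72 were not called, with a median log2 fold change of 0.48 at 1 h. Over all genes tested, 37% rose and 29.7% fell at 1 h. With the other TMM reference 79 of the 212 rose at 1 h and 47 fell. With library totals 3 of the 212 rose at 1 h and 99 fell, with a median of -0.50 against -0.84 for all genes, and their median at 24 h was -7.11. Of the 212 genes, 211 passed the test of the difference, against 68.8% of all genes, which their choice at 24 h favours. Their median level at 24 h was 0.384 CPM in GA and 37.2 CPM in None. The same genes had a median log2 fold change at 24 h of -6.73 in GA, -5.68 in AZD and -3.33 in Glu, each against the same None libraries; since the genes were chosen for their levels in GA and None, a larger size in GA is favoured. Of the 27 genes on at 24 h, 13 rose at 1 h, 1 fell and 13 were not called, and 25 passed the difference, to be read against the same shares of all genes. With totals 7 rose and 4 fell at 1 h. Their median log2 fold change at 24 h was 6.59 in GA, 5.02 in AZD and 2.04 in Glu.

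The patterns also differed in the share of all CPM that they hold. These shares describe genes chosen by the same contrasts and lend the patterns no separate support. As shares within a library, they are the same under every scaling factor. The 1266 genes that rose and then fell held 22.6% ± 0.598 of CPM in GA and 18.4% ± 1.02 in None at 1 h (SD, n = 4 each). At 24 h they held 3.89% ± 0.163 in GA (n = 3) and 22.9% ± 1.18 in None (n = 4). The 1080 genes whose rise was larger at 24 h held 17.9% ± 0.923 in GA and 12.1% ± 0.157 in None at 1 h, and 40.8% ± 1.31 in GA and 6.45% ± 0.176 in None at 24 h. The 1417 genes that fell at 24 h without a call at 1 h held 6.95% ± 0.287 in GA and 12.6% ± 0.225 in None at 1 h, and 2.34% ± 0.141 in GA and 20.4% ± 0.320 in None at 24 h. Changes between the times were found at all levels of expression: with the genes in 4 bins of equal number by mean CPM, 61.9%, 72.2%, 69.6% and 71.5% passed the test, from the lowest bin to the highest.

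The response of each set in AZD and in Glu is given beside that in GA. All these fold changes use the same None libraries, so their likeness is no result of its own. The sets were chosen by calls in GA, which favours larger medians in GA than in AZD or Glu, so that order is no result either. In the genes that rose and then fell in GA, the medians at 1 h were 0.81 in GA, 0.56 in AZD and 0.17 in Glu. At 24 h they were -1.71 in GA, -1.41 in AZD and -1.38 in Glu. In the genes that fell and then rose, the medians were -0.89 in GA, -0.66 in AZD and -0.09 in Glu at 1 h, and 0.82, 0.61 and 0.49 at 24 h in the same order. For rises larger at 24 h the 24 h medians were 2.35 in GA, 1.77 in AZD and 0.74 in Glu, and for falls larger at 24 h they were -2.43, -1.57 and -0.44. In the genes whose fall was smaller at 24 h, Glu had the other sign at 24 h: the medians were -0.85 in GA, -0.92 in AZD and 0.57 in Glu.

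**Figure D4:**
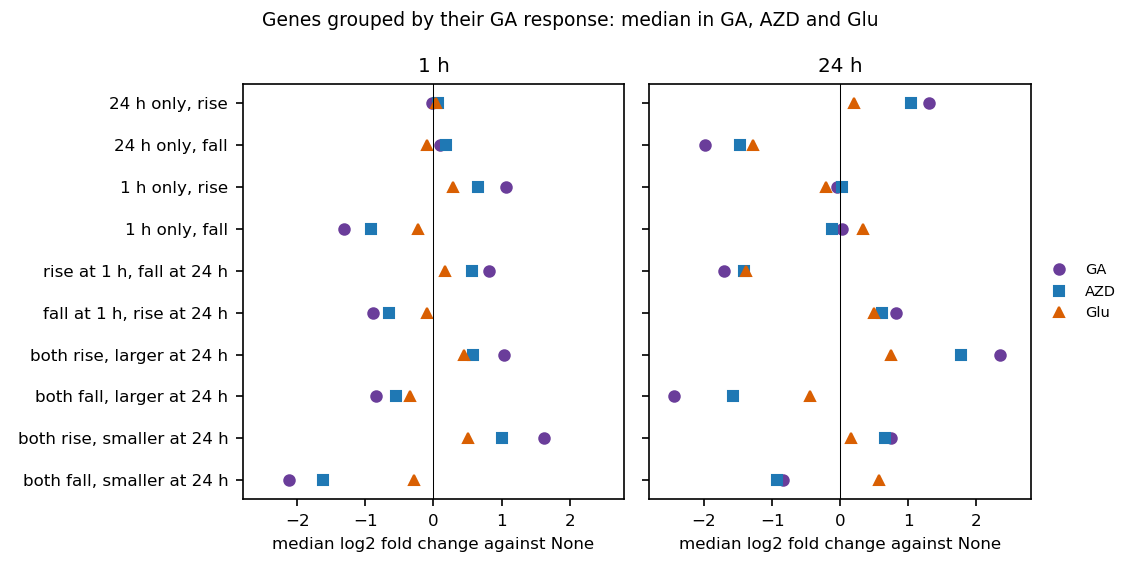
Median log2 fold change against None (horizontal axis) at 1 h and 24 h of the genes in each GA response pattern, for GA (circles), AZD (squares) and Glu (triangles). For rises larger at 24 h the 24 h medians are 2.35 in GA, 1.77 in AZD and 0.74 in Glu; the choice of genes by their calls in GA favours the larger size in GA.

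Whether the change with time differed between treatments was tested directly, in contrasts from which None cancels. Against AZD, 5148 genes (42.4%) differed, 2408 (19.8%) with a more positive change in GA and 2740 (22.6%) with a more negative one, and 2909 (24%) differed at least 2-fold. Against Glu, 7986 genes (65.8%) differed, 4381 (36.1%) more positive and 3605 (29.7%) more negative in GA, and 5490 (45.2%) at least 2-fold. With library totals the more positive share was 62.3% against AZD, where it was 46.8% with TMM, and 68.8% against Glu, where it was 54.9%. With Glu replicate 4 and S replicate 1 of 1 h left out, 5710 genes differed from AZD and 8006 from Glu.

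Among the candidates for naming, the most negative changes relative to AZD belonged to Cz12g12230 and Cz04g04050. Cz12g12230 had 233, 255, 222 and 196 CPM in GA at 1 h, against 190.2, 211 and 116 CPM in AZD and 239, 269.8, 172 and 243 CPM in None. After 24 h it had 0, 0.0529 and 0.157 CPM in GA, against 38.9, 60.6, 58.4 and 66.3 CPM in AZD and 693, 622, 608 and 721 CPM in None. So it fell in both at 24 h, and in GA to almost no counts (10 in all). The change with time was more negative than in AZD by a log2 value of -9.86 (SE 0.55, edgeR adjusted p = 2.23e-15), and by -11.33 without GA replicate 4 at 24 h. Its GA difference between the times, -13.00, was -14.47 without that library. Cz04g04050 had 39.2, 45.8, 35.0 and 24.2 CPM in GA at 1 h, against 14.7, 17.1 and 10.2 CPM in AZD and 13.5, 18.8, 10.5 and 12.8 CPM in None. Its 24 h levels were 0, 0 and 0.0786 CPM in GA (4 counts), 6.79 to 17.2 CPM over the 4 libraries of AZD and 227, 231, 250.0 and 283 CPM in None. The log2 value against AZD was -9.71 (SE 0.93, edgeR adjusted p = 3.15e-10), and -12.96 without GA replicate 4 at 24 h, where the GA difference between the times was -17.46, against -14.21 with all libraries. Its rise in GA at 1 h, 1.38 on the log2 scale, was not called with library totals (0.39, adjusted p = 0.297). Cz12g12230 was called down at 1 h with totals, at -1.01.

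More positive changes than in AZD were led, among the candidates for naming, by Cz06g29150 and Cz02g12170. Cz06g29150 had 1.30, 0, 0.449 and 0.732 CPM in GA at 1 h, against 0.143, 0.377 and 0 CPM in AZD and 1.04, 1.34, 0.345 and 1.09 CPM in None. In the 24 h libraries it had 18.7, 14.3 and 14.1 CPM in GA, against 0.314, 0.106, 0 and 0.0602 CPM in AZD and 0.358, 1.89, 1.22 and 1.495 CPM in None. It thus rose in GA and fell in AZD at 24 h, and it rose in Glu, with 6.39, 7.52, 5.15 and 4.80 CPM. The log2 value against AZD was 5.13 (SE 1.07, edgeR adjusted p = 0.000223). It was 4.098 without AZD replicate 2 and 5.74 without GA replicate 1 at 1 h, and 6.46 without AZD replicate 1 at 24 h. The GA difference between the times, 4.24, was 5.07 without GA replicate 1 at 1 h, and with library totals the gene was called down in GA at 1 h, at -1.503. Cz02g12170 fell in GA and AZD alike at 24 h, with 0.0948, 0.0794 and 0.236 CPM in GA (19 counts), no count in the 4 AZD libraries and 18.1, 24.1, 18.0 and 16.1 CPM in None. At 1 h it had 9.48, 8.74, 11.7 and 13.8 CPM in GA, 8.76, 8.84 and 8.80 CPM in AZD and 8.00, 9.21, 6.44 and 5.77 CPM in None. Its GA difference between the times, -7.60, was -8.29 without GA replicate 4 at 24 h. Its log2 value against AZD was 5.06 (SE 1.29, edgeR adjusted p = 0.00208). This value compares few counts with 0, depends on the prior count of the edgeR fit, and was 4.36 without GA replicate 4 at 24 h.

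Relative to Glu, Cz03g40210 and Cz05g09040 had the most positive changes of the candidates for naming. Cz03g40210 had 0.651, 0.702, 0.359 and 0.399 CPM in GA at 1 h, against 0.350, 0.621, 0.460 and 11.6 CPM in Glu and 0.116, 0.268, 0.264 and 0.564 CPM in None. At 24 h it had 29.9, 31.3 and 30.5 CPM in GA, against 0.217, 0.131, 0 and 0 CPM in Glu and 0, 0.126, 0.286 and 0 CPM in None. At 24 h it therefore rose in GA while Glu lay within the range of None, and AZD had 1.02, 1.28, 1.29 and 0.542 CPM. At 1 h it was called up in Glu, at 3.41 (edgeR adjusted p = 0.00383), where replicate 4 held 880 of the 924 counts. The log2 value against Glu was 10.96 (SE 1.43, edgeR adjusted p = 5.09e-08), and 8.14 without Glu replicate 4 at 1 h. Its difference between the times in GA, 7.56, was 9.30 without None replicate 3 at 24 h. Cz05g09040 had 0.163, 0, 0 and 0 CPM in GA at 1 h (4 counts), 0.0539, 0, 0 and 0.251 CPM in Glu and 0, 0, 0.0812 and 0 CPM in None (4 counts). Its 24 h levels were 21.9, 23.2 and 23.8 CPM in GA, 0.0433, 0.0373, 0.0202 and 0.0604 CPM in Glu and 0.110, 0.377, 0.358 and 0.0748 CPM in None. It rose at 24 h in AZD too, with 5.42 to 8.32 CPM over the libraries. The log2 fold change against None at 24 h was 4.93 in AZD and 6.72 in GA. The log2 value against Glu was 10.34 (SE 1.26, edgeR adjusted p = 1.4e-08), 8.19 without Glu replicate 4 and 14.01 without GA replicate 1 at 1 h. Its GA difference between the times, 5.90 (adjusted p = 0.00711), lost the call without None replicate 3 at 1 h (3.22, adjusted p = 0.863), and was 6.58 without None replicate 4 and 9.72 without GA replicate 1 at 1 h.

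The most negative changes relative to Glu among the candidates for naming were those of Cz09g32070 and Cz17g10220. Cz09g32070 had 343, 354, 258 and 234 CPM in GA at 1 h, against 263, 385, 274 and 84.6 CPM in Glu and 343, 376, 294 and 351 CPM in None. After 24 h it had 0.0474, 0.159 and 0.354 CPM in GA, against 296, 265, 467 and 332 CPM in Glu and 1408, 1371, 1568 and 1648 CPM in None. In AZD at 24 h it stood between GA and None, with 66.0, 142, 105 and 162 CPM. The log2 value against Glu was -10.98 (SE 0.64, edgeR adjusted p = 8.78e-16), and -11.91 without GA replicate 4 at 24 h, where the GA difference between the times was -13.61, against -12.68 with all libraries. With library totals it was called down at 1 h in GA, at -1.18. Cz17g10220 had 2.81, 2.55, 4.80 and 6.32 CPM in GA at 1 h, no count in the 4 Glu libraries, and values in None that varied, at 2.41, 0, 2.70 and 0 CPM. The libraries of S, a further group of the series, varied likewise at 1 h, at 0, 1.63, 3.41 and 0 CPM, and AZD had 3.15, 2.95 and 2.95 CPM. In the 24 h libraries it had no count in GA, 0, 0, 1.51 and 0.514 CPM in Glu and 4.05, 11.4, 6.76 and 4.41 CPM in None, so it was at least 259-fold lower in GA than in None with 3 counts over the group as the floor. The 4 AZD and the 4 S libraries at 24 h held no count of it either. The fitted value against Glu, -17.33 (SE 3.91, edgeR adjusted p = 0.000494), has groups at 0 on both sides, so its size has no meaning beyond the call. It was -15.39 without Glu replicate 3 at 24 h, and the GA difference between the times, -12.57, was -11.94 without None replicate 4 at 1 h.

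**Figure D5:**
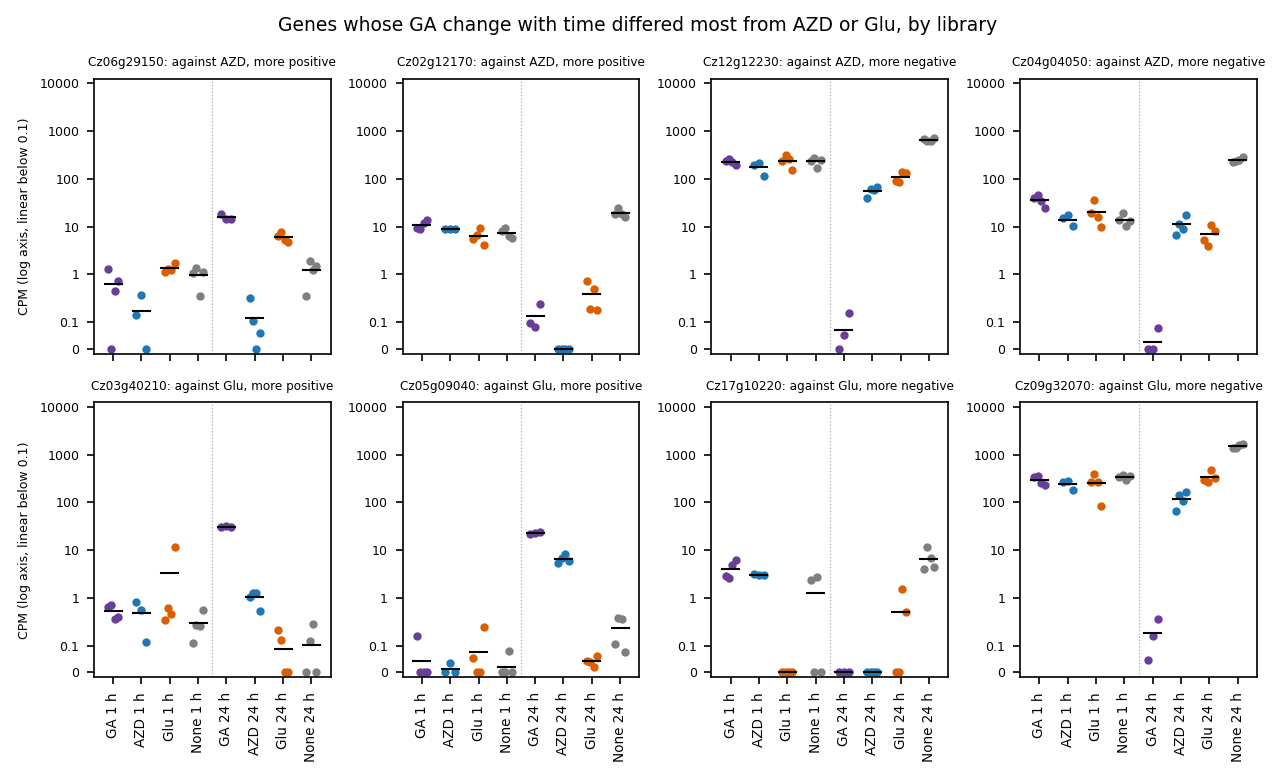
CPM by library (points) and group mean (line), on a log axis that is linear below 0.1, of the 8 genes named for their change with time in GA against AZD or Glu, for GA, AZD, Glu and None at 1 h and then at 24 h. Cz12g12230 and Cz09g32070 show GA near 0 at 24 h and the other 3 groups shown above 10 CPM, and Cz03g40210 shows GA at 29.9 to 31.3 CPM at 24 h, above the other 3.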

How the data were processed

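Poly(A) RNA libraries of wild-type cells were sequenced as read pairs and reads trimmed with BBDUK, per the labels' protocols. Salmon and DESeq2 1.46.0 appear in the submitters' processing notes, with no role stated. The sources used here give no genome build, annotation or strand setting. The deposited table holds estimated counts per gene, not scaled for depth, for 12459 genes, 48 of them with no count, and 0 columns of other samples. Near-identical or overlapping genes can share reads. Counts were rounded and tested with edgeR 4.0.16 in R 4.3.3: filterByExpr (minimum count 10, total 15) kept 12142 genes, libraries were TMM-scaled, and 1 quasi-likelihood model with 10 group means was fitted to 38 libraries (28 residual degrees of freedom, prior 5.36, biological coefficient of variation 0.20). P-values were adjusted by Benjamini-Hochberg over all genes and called under 0.05. For distances, CPM were put on the log2 scale after adding a prior count of 2. Counting intervals are exact 95% binomial intervals of the share of the counts held by GA, turned into ratios by the scaled library sizes. Like the floor of 3 counts, they cover counting error only. The 21 replicate pairs among the 15 libraries all exceeded sampling noise, with chi-square values of 12.5 to 123 per degree of freedom. These were uneven. In None at 1 h, replicate 3 was at 89.1 to 97.5 from the others, which were at 12.5 to 16.1. In GA at 1 h, replicates 1 and 2 (13.7) and 3 and 4 (41.1) were nearer than pairs across them (96.1 to 123). In GA at 24 h, replicate 3 was at 95.2 and 101, and 1 and 4 at 27.9. None at 24 h ran from 16.5 to 84.4. The cause was not tested.

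The question, the groups and the naming rule were chosen with earlier results of these data known. Named genes passed the difference, reached a mean of 5 CPM in a group of GA or None, and were the 2 per direction with the largest difference (late, larger at 24 h), the largest change at 1 h (early), the largest smaller change of the 2 times (reversed), or the largest difference from AZD or Glu. Alternatives were DESeq2 1.42.0, other scalings, no filter, unrounded counts, only the groups compared, a replicate block and each library left out.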

Additional observations from a re-analysis of the deposited data

Results flagged for a closer look

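By design, the test of the difference between the times marks each named gene as changing its GA response. The log2 differences, 24 h minus 1 h, were 9.34 for Cz02g05040, 8.78 for Cz01g44090, 7.54 for Cz05g16120, 6.84 for Cz07g04070, 5.67 for Cz06g08010, 6.27 for Cz15g02150, 6.75 for Cz03g33220 and 6.41 for Cz07g06030. They were -13.25 for Cz06g31280, -13.10 for Cz01g23030, -7.13 for Cz13g05050, -3.08 for UNPLg00053, -6.42 for Cz06g05180, -8.72 for Cz18g04140, -10.65 for Cz02g09070 and -9.59 for Cz02g20090. Of the genes named against AZD or Glu, Cz06g29150 had 4.24, Cz03g40210 7.56 and Cz05g09040 5.90, and Cz02g12170 had -7.60, Cz12g12230 -13.00, Cz04g04050 -14.21, Cz17g10220 -12.57 and Cz09g32070 -12.68. In all, 8353 genes changed their GA response between the times, and the change with time differed from that in AZD for 5148 genes and from that in Glu for 7986.

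In 8 of 99 groups of 4 libraries tested, a single library lay far from the others of its group. The rule flags about 1 in 20 groups of independent, normally distributed values. Here the groups share libraries, and where the others are at 0 any count is flagged, so the number cannot be set against that rate. In GA at 1 h, replicate 1 had 0.0814 CPM of Cz02g05040 and 0.163 CPM of Cz05g09040 while the others had 0. Replicate 4 had 0.266 CPM of Cz05g16120 while the others had 0, and replicate 1 had 32.1 CPM of Cz13g05050, above the 25.8 to 26.7 CPM of the others. In None at 1 h, replicate 3 had 5.06 CPM of Cz01g44090, below the 6.17 to 6.33 CPM of the others, and 0.0812 CPM of Cz05g09040 while the others had 0. In None at 24 h, replicate 3 had 0 CPM of Cz07g06030, below the 0.578 to 0.628 CPM of the others. In Glu at 1 h, replicate 4 had 11.6 CPM of Cz03g40210, above the 0.350 to 0.621 CPM of the others.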

How the results depend on the processing

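The counts of genes called kept within 1.5 times of the values above under other scalings, no filter, unrounded counts, DESeq2, only the groups compared, and only genes of at least 5 CPM on average. The last of these, the other TMM reference library and the fit that leaves out Glu replicate 4 and S replicate 1 of 1 h (8677 genes for the difference, 8366 at 1 h, 9438 at 24 h, 5710 against AZD and 8006 against Glu) were chosen after seeing the data. With each library left out in turn, the difference between the times was called for 8012 to 8415 genes, GA against None for 7579 to 7707 at 1 h and 8716 to 9012 at 24 h, and the change with time for 4571 to 5067 genes against AZD and 7614 to 8002 against Glu. At 1 h every such count was below the 8101 with all libraries; TMM picks its reference library anew in each fit, and the cause was not tested. The more positive share of the difference was 48.9% to 57.6% over these fits, so the majority direction is not settled. The test of a difference beyond 2-fold called 4446 genes. With library totals the patterns held 1039 falls and 946 rises at 24 h without a call at 1 h, 129 early rises, 1773 early falls, 224 rises then falls, 1313 falls then rises, 548 rises larger at 24 h, 41 rises smaller at 24 h, 1382 falls larger at 24 h and 1334 falls smaller at 24 h.

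With the replicate number as a block, 8087 genes were called for the difference, 7888 at 1 h, 8984 at 24 h, 4671 against AZD and 7704 against Glu. The numbers were not taken to pair the libraries: over 7 pairs of GA and None libraries with the same number, the correlation of their deviations ran from -0.26 to 0.11, 2 were over 0.1, and 0 GA libraries correlated best with their own number. Over the 6 pairs of GA and AZD it ran from -0.12 to 0.31, with 2 over 0.1 and 3 best with their own number, 2 of these at 24 h (0.31 and 0.21). With Glu it was -0.33 to 0.21 over 7 pairs, 1 best with its own, and with S -0.20 to 0.25 over 7 pairs, 3 best with their own. Of the named genes' values under the alternatives, 804 kept direction and call, 3 lost the call and none reversed. The 3 are the fits without 1 library given with Cz13g05050, UNPLg00053 and Cz05g09040. Depth limits genes with few counts at either time, whose fold sizes move with single counts.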
